A study of Mus musculus with 6 samples.

Results

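AMPA and NMDA receptors are the ionotropic glutamate receptors that carry most fast excitatory transmission in the forebrain. AMPA receptors are tetramers of the subunits encoded by *Gria1* to *Gria4*, and they produce the fast current at the synapse. NMDA receptors combine the obligatory subunit encoded by *Grin1* with subunits encoded by *Grin2a* to *Grin2d* or *Grin3a*, and they admit calcium when glutamate and a co-agonist are bound and the membrane is depolarised. In rodent forebrain, *Grin2b* predominates before birth and *Grin2a* increases during the first postnatal weeks, and both families are further varied by alternative splicing.

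These subunit genes were followed in the whole forebrain of 3 *Slc13a4*+/- mice (Nas2Del_Het_1024, Nas2Del_Het_1025 and Nas2Del_Het_1027) and 3 wild-type mice (Nas2Del_WT_1016, Nas2Del_WT_1018 and Nas2Del_WT_1026). All were C57BL/6 mice at postnatal day 20, and the *Slc13a4*+/- mice lacked 1 allele of the gene of a sodium-coupled sulfate transporter. The controls are described as wild-type littermates, but which mice shared a litter is not stated in the labels or the methods. Members were taken by gene symbol, which gave 10 of the 35523 genes of the GENCODE M21 annotation found in the data (4 AMPA and 6 NMDA receptor genes) and 62 of the 115973 matched transcripts. All 10 genes passed the filter on low counts. Values below are given by mouse in the order of the animal numbers.

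The libraries held 69260309 to 78070813 estimated counts in *Slc13a4*+/- mice and 60340337 to 80410582 in wild-type mice. *Slc13a4* had 5.60, 6.57 and 5.42 CPM (counts per 1e+06 counts, after TMM scaling) in *Slc13a4*+/- mice, against 10.4, 9.36 and 8.23 CPM in wild-type mice, so the groups did not overlap. Its log2 fold change was -0.67 (SE 0.11), which passed the threshold of 0.1 in DESeq2 (adjusted p = 0.00240) and missed it in edgeR (adjusted p = 0.500). Without wild-type mouse Nas2Del_WT_1026 edgeR called it too (-0.76, adjusted p = 0.0589). Wild-type mouse Nas2Del_WT_1016 had 30.6 CPM of the Y-linked gene *Kdm5d*, and the other 5 mice had 2.87 to 4.80 CPM. No label states the sex of any mouse. Wild-type mouse Nas2Del_WT_1026 had a chi-square per gene of 39.4 and 33.8 against the other wild-type mice, where that pair differed by 7.004. Against the *Slc13a4*+/- mice its values were lower, at 17.9, 22.1 and 15.04. Nas2Del_WT_1016 and Nas2Del_WT_1018 had values between 13.95 and 22.03 against the *Slc13a4*+/- mice. By this measure the wild-type group was split, and each part lay nearer to the *Slc13a4*+/- mice than to the other part. Summed markers of excitatory neurons lay between 1140 and 1200 CPM in *Slc13a4*+/- mice and between 1112 and 1228 CPM in wild-type mice. Of 6 cerebellar granule cell markers, *Gabra6* did not pass the filter on low counts and 5 did, with a summed level of 95.2 to 103 CPM in *Slc13a4*+/- mice and 90.7 to 101 CPM in wild-type mice. Among those 5, *Fat2* had 2.82, 1.13 and 0.856 CPM in *Slc13a4*+/- mice, against 0.856, 1.34 and 0.821 CPM in wild-type mice.

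The subunit genes were first ordered by level, using TPM (transcripts per 1e+06, a measure scaled by transcript length). *Gria2*, whose edited subunit makes AMPA receptors impermeable to calcium, stood first. It had 389, 401 and 408 TPM in *Slc13a4*+/- mice, against 352, 369 and 381 TPM in wild-type mice. *Grin1* followed with a mean of 199 TPM over the 6 mice, and *Gria1*, the main partner of *Gria2* at hippocampal and cortical synapses, with 170 TPM. *Grin1* was above *Gria1* in 6 of 6 mice, but the ranges of these genes over the mice overlapped.

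A second tier held *Grin2b* (mean of 126 TPM), *Gria3* (113 TPM), *Grin2a* (107 TPM) and *Gria4* (83.0 TPM), which encodes a subunit of fast AMPA receptors in interneurons and early neurons. The ranges of *Grin2b*, *Gria3* and *Grin2a* over the mice overlapped. Within mice, *Grin2b* was above *Gria3* in 6 of 6 (log2 ratio 0.0028 to 0.31), and *Gria3* was above *Grin2a* in 5. *Gria4* lay below *Grin2a* in all 6 mice. *Grin3a*, a subunit that lowers calcium entry, had 23.7 to 26.7 TPM. *Grin2c*, best known from cerebellum and astrocytes, had 19.4 to 20.4 TPM. *Grin2d*, the subunit of slowly decaying receptors in interneurons and the diencephalon, had 3.38 to 4.07 TPM. The steps from *Gria4* to *Grin3a*, to *Grin2c* and to *Grin2d* were each present in all 6 mice with ranges that did not overlap.

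**Figure D1:**
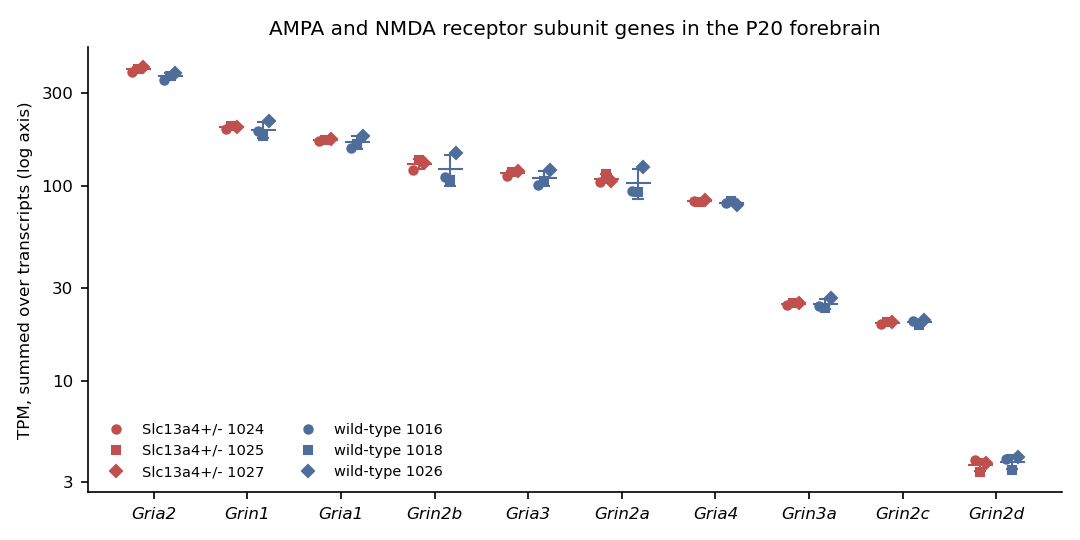
TPM (y axis, log scale) of the 10 subunit genes in each mouse, with *Slc13a4*+/- mice (red) left of wild-type mice (blue) for each gene and the mean ± SD of 3 mice as a line with bars. *Gria2* is highest at 352 to 408 TPM, *Grin2d* lowest at 3.38 to 4.07 TPM, and wild-type mouse Nas2Del_WT_1026 is the highest wild-type mouse for *Grin2a* and *Grin2b*.

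Part of this order depended on short annotated transcripts. A transcript was called full-length coding when its coding sequence reached 85% of the longest one of its gene, and 30 of the 62 transcripts did so. *Gria4-203*, of 2338 bases, is not among them, yet it held 49.5% ± 1.0 of *Gria4* TPM in *Slc13a4*+/- mice and 50.7% ± 1.5 in wild-type mice (SD, n = 3 each). With full-length coding transcripts alone *Gria4* had a mean of 41.4 TPM over the 6 mice. *Gria2* remained first under that count (310 TPM) and *Grin2d* last (3.42 TPM). In counts per kilobase of the longest annotated transcript, *Grin1* (mean of 6039) and *Gria2* (5944) were not separated, with *Grin1* higher in 3 of 6 mice. In protein-coding transcripts alone the ranges of *Grin2a* and *Gria4* overlapped, and so did those of *Grin3a* and *Grin2c*.

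The balance of *Grin2a* to *Grin2b* was the next question, since these genes change places during postnatal life. *Grin2b* encodes the subunit of early NMDA receptors with slow decay and binds CaMKII strongly, and *Grin2a* encodes the subunit of faster mature receptors. By TPM the log2 ratio of *Grin2a* to *Grin2b* was -0.21, -0.24 and -0.29 in *Slc13a4*+/- mice, against -0.25, -0.21 and -0.25 in wild-type mice. *Grin2b* was thus above *Grin2a* in all 6 mice. The genotypes differed by -0.01 on this scale (exact permutation test, two-sided p = 0.7), and their ranges overlapped. With 3 mice against 3 the smallest p such a test can give is 0.1.

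The sign of that ratio rested on *Grin2b* fragments. The 2 full-length transcripts of *Grin2b*, *Grin2b-201* of 24060 bases and *Grin2b-202* of 7484 bases, held 99.0% ± 0.07 of its estimated counts in *Slc13a4*+/- mice and 99.1% ± 0.17 in wild-type mice (SD, n = 3 each). The other 5 transcripts held the small remainder of the counts, but being short they took 31.5% ± 1.6 of *Grin2b* TPM in *Slc13a4*+/- mice and 27.7% ± 1.5 in wild-type mice. In full-length coding transcripts alone, the log2 ratio of *Grin2a* to *Grin2b* was 0.09, 0.10 and 0.05 in *Slc13a4*+/- mice, against -0.01, 0.09 and -0.06 in wild-type mice. *Grin2a* was then higher in 4 of 6 mice, and the genotypes differed by 0.07 with overlapping ranges (exact permutation test, two-sided p = 0.2). In counts per kilobase of the longest annotated transcript the ratio lay between -0.13 and 0.06 over the 6 mice. In protein-coding transcripts alone, which keep short *Grin2b* models, the ratio lay between -0.47 and -0.38, farther from 0 than by TPM of all transcripts. The count of full-length transcripts was added after the data were seen.

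**Figure D2:**
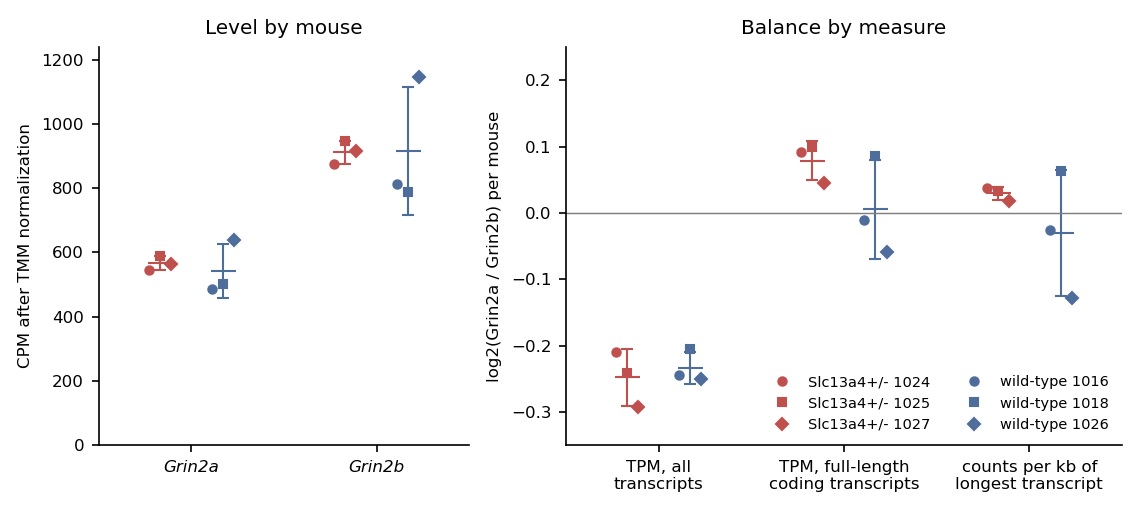
Left, CPM after TMM scaling of *Grin2a* and *Grin2b* in each mouse. Right, log2 ratio of *Grin2a* to *Grin2b* by 3 measures, with *Slc13a4*+/- mice (red) left of wild-type mice (blue) and the mean ± SD of 3 mice. The ratio is -0.29 to -0.21 by TPM and -0.06 to 0.10 in full-length coding transcripts, and wild-type mouse Nas2Del_WT_1026 has 1147 CPM of *Grin2b* where the other wild-type mice have 812 and 788.

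Among the AMPA receptor genes, the composition by TPM differed slightly between genotypes. *Gria2* made up 51.4%, 51.8% and 51.8% of summed *Gria1* to *Gria4* TPM in *Slc13a4*+/- mice, against 50.8%, 50.9% and 49.9% in wild-type mice. *Gria1* made up 22.5%, 22.3% and 22.2% in *Slc13a4*+/- mice, against 22.6%, 22.8% and 23.8% in wild-type mice. Neither pair of ranges overlapped, and each difference (1.14 and -0.75 percentage points) reached the smallest p that 3 mice against 3 allow (exact permutation test, two-sided p = 0.1). Without wild-type mouse Nas2Del_WT_1026 the *Gria1* difference was -0.40 percentage points, and it lay between -0.97 and -0.40 with each mouse left out in turn. After adjustment over the 17 balances and splice shares tested, each had p = 0.85 by the same exact test. In protein-coding transcripts alone both pairs of ranges overlapped. *Gria2* has 5 annotated retained-intron transcripts, which held 18.7% ± 2.8 of its TPM in *Slc13a4*+/- mice and 17.3% ± 1.4 in wild-type mice. *Gria3* made up 15.1% ± 0.17 in *Slc13a4*+/- mice and 15.1% ± 0.62 in wild-type mice, and *Gria4* 10.9% ± 0.25 and 11.3% ± 0.68 of the sum in these groups (SD, n = 3 each). For the *Grin2* genes, *Grin2b* took 49.4% ± 0.73 of the summed TPM in *Slc13a4*+/- mice and 48.8% ± 0.94 in wild-type mice, with *Grin2a* at 41.6% ± 0.66 and 41.5% ± 0.50, and all 4 *Grin2* shares by TPM overlapped between genotypes. In full-length coding transcripts alone the *Grin2a* share did not overlap, with 45.6%, 46.0% and 45.1% in *Slc13a4*+/- mice, against 43.4%, 45.1% and 44.0% in wild-type mice (difference 1.41 percentage points, exact permutation test, two-sided p = 0.1). The closest values were 45.10% in a *Slc13a4*+/- mouse and 45.06% in a wild-type mouse. Without wild-type mouse Nas2Del_WT_1026, 7 of the 9 balances other than *Grin2a* to *Grin2b* had no overlap, where 2 had none with all 6 mice. Ranges of fewer mice fail to overlap more often by chance. Shares of a family sum to the whole, so these balances are not independent.

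Splice forms were read from the annotated transcripts. Each *Gria* gene carries a pair of mutually exclusive exons, flip and flop, of 115 bases each, which encode part of the extracellular ligand-binding region. Flip receptors desensitise more slowly than flop receptors in most subunits, and an early codon, serine in flip and asparagine in flop, is one of the residues that sets binding of the flip-preferring modulator cyclothiazide. The exons of *Gria1*, *Gria2* and *Gria4* are shown because they define the flip and flop forms. In each, capitals mark the serine or asparagine codon, and the sequences are written 5′ to 3′ on the strand of the gene, read from the GENCODE M21 transcripts.
Gria1 flip (chr11:57310608-57310722, plus strand, GRCm38): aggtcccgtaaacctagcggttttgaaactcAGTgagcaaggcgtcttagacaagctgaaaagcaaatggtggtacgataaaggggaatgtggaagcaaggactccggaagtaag
Gria1 flop (chr11:57309769-57309883, plus strand, GRCm38): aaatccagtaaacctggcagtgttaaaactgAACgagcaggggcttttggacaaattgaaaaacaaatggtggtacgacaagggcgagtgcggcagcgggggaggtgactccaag
Gria2 flip (chr3:80690404-80690518, minus strand, GRCm38): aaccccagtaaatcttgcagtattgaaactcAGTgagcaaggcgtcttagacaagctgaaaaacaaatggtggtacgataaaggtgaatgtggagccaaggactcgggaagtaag
Gria2 flop (chr3:80691320-80691434, minus strand, GRCm38): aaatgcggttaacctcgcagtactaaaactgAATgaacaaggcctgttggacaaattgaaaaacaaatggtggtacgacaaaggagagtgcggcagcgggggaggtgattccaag
Gria4 flip (chr9:4427030-4427144, minus strand, GRCm38): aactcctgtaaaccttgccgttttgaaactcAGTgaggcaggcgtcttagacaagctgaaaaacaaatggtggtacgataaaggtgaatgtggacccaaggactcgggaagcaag
Gria4 flop (chr9:4432773-4432887, minus strand, GRCm38): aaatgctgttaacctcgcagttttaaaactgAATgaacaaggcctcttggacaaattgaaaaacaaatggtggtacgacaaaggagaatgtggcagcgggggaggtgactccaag

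Within a gene, flip and flop were less alike than the same form was between genes. Flip and flop of *Gria2* had 79 of 115 bases in common (68.7%), and those of *Gria4* 84 (73.0%). Flop of *Gria2* and flop of *Gria4* had 108 bases in common (93.9%), and flip of *Gria2* and flip of *Gria4* 106 (92.2%). The exons of *Gria2* and *Gria4* thus differed at 7 bases in flop and 9 in flip. The effect of this likeness on the assignment of reads to genes was not tested.

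The flip share of the flip and flop transcripts was 59.3%, 61.8% and 61.6% for *Gria1* in *Slc13a4*+/- mice, against 63.2%, 59.2% and 60.7% in wild-type mice. For *Gria4* it was 34.95%, 31.1% and 35.5% in *Slc13a4*+/- mice, against 30.1%, 34.99% and 35.6% in wild-type mice. *Gria1* was therefore mostly flip and *Gria4* mostly flop in every mouse. In both genes the flip and flop transcripts have annotated last exons of nearly the same length. For *Gria2* the flip share was 79.3% ± 0.11 in *Slc13a4*+/- mice and 79.5% ± 0.64 in wild-type mice, and for *Gria3* 85.1% ± 0.74 and 85.4% ± 2.5 in these groups (SD, n = 3 each). These last shares are tied to the 3′ ends, as the annotated last exon of *Gria2* has 920 bases in the flip transcript and 7265 in the flop transcript, and that of *Gria3* has 2262 bases in the flip transcript and 246 in the flop transcripts. In estimated counts in place of TPM the *Gria2* flip share was 59.2% in *Slc13a4*+/- mice and 59.5% in wild-type mice. None of the 4 flip shares separated the genotypes (exact permutation tests, two-sided p from 0.8 to 1). RNA editing of *Gria2* was not measured.

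*Grin1* has a 5′ cassette exon (N1, 63 bases) that encodes an extracellular loop and alters sensitivity to protons and polyamines. It also has a 3′ cassette (C1, 111 bases), which carries an endoplasmic reticulum retention signal, and a choice of acceptor in the last exon that gives the C2 or the C2′ tail. The last exon has 1304 bases with C2 and 948 bases with C2′. Both cassettes are shown because each form of GluN1 is defined by them, together with the tail.
Grin1 N1 (chr2:25311343-25311405, minus strand, GRCm38): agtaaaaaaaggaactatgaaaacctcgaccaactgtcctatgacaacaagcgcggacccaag
Grin1 C1 (chr2:25294438-25294548, minus strand, GRCm38): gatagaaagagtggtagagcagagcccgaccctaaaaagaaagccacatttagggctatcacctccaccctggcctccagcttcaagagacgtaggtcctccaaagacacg

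N1 was present in 18.7%, 18.0% and 17.2% of the TPM of full-length *Grin1* transcripts in *Slc13a4*+/- mice, against 18.1%, 19.7% and 18.9% in wild-type mice. C1 was present in 49.3%, 47.7% and 53.1% in *Slc13a4*+/- mice, against 48.5%, 51.8% and 51.8% in wild-type mice. The C2′ tail was carried by 64.2%, 66.5% and 64.2% in *Slc13a4*+/- mice, against 64.5%, 63.9% and 63.2% in wild-type mice. The ranges overlapped for all 3 choices (exact permutation tests, two-sided p from 0.2 to 0.9). Single mice decided some of this overlap, though ranges of fewer mice fail to overlap more often by chance. Of the 7 splice shares, 1 had none without mouse Nas2Del_Het_1024 (N1), 1 without mouse Nas2Del_WT_1018 (flip of *Gria2*) and 2 without mouse Nas2Del_WT_1016 (N1 and C2′).

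By whole form, GluN1-3a (C1 with C2′, no N1) took 24.5% ± 3.1 of *Grin1* in *Slc13a4*+/- mice and 24.7% ± 1.9 in wild-type mice. GluN1-1a (C1 with C2) took 23.6% ± 1.4 in *Slc13a4*+/- mice and 25.1% ± 0.21 in wild-type mice, and GluN1-4a (C2′ alone) 23.9% ± 4.5 and 20.9% ± 3.1 in these groups (SD, n = 3 each). Most N1 lay in GluN1-4b, with 15.1%, 15.7% and 17.2% in *Slc13a4*+/- mice, against 18.1%, 19.7% and 16.3% in wild-type mice. GluN1-2b was listed at 0 in all 6 mice, and GluN1-1b and GluN1-3b at 0 in 3 mice. N1 and C1 lie far apart in the transcript, so which N1 and C1 choices go together in 1 molecule is an estimate from short reads.

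**Figure D3:**
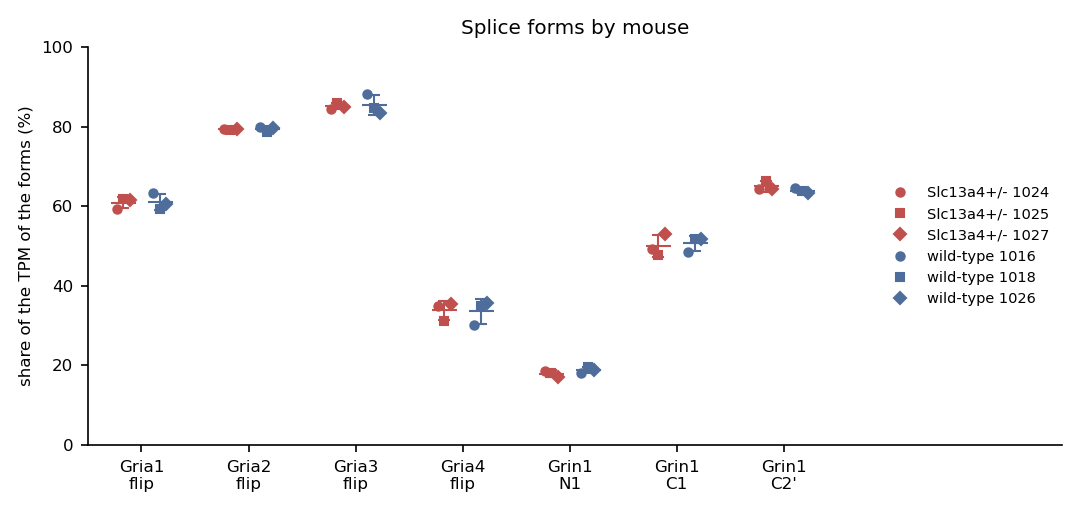
Share (y axis, percent of the TPM of the forms) of flip transcripts of *Gria1* to *Gria4* and of *Grin1* transcripts with N1, with C1 and with C2′ in each mouse, *Slc13a4*+/- (red) left of wild-type (blue), with the mean ± SD of 3 mice. All 7 shares overlap between genotypes, with *Gria3* at 83.4% to 88.2% flip and *Gria4* at 30.1% to 35.6% flip.

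The comparison of *Slc13a4*+/- with wild-type mice was made over all 17096 genes that passed the filter. None of the 10 subunit genes was called at an adjusted p under 0.1 by edgeR or by DESeq2. With a covariate for the run of animal numbers (Nas2Del_WT_1016 and Nas2Del_WT_1018 against the other mice) edgeR called 1 of them, *Grin2b* (log2 fold change -0.33, edgeR adjusted p = 0.0523), beside 0.836% of all genes. Without the covariate the background was sparse too, with 0.00585% of all genes called in edgeR (only *Eed*, which encodes a Polycomb subunit), and 0.487% in DESeq2. Of the 10 genes, 1 had an edgeR p below 0.05 before adjustment, where the background was 9.15%. The median log2 fold change of the 10 genes was 0.02, and that of all genes -0.0045.

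The gene with that p was *Gria2* (ENSMUSG00000033981, chromosome 3, 80681450 to 80802835), with 884, 882 and 916 CPM in *Slc13a4*+/- mice, against 803, 842 and 863 CPM in wild-type mice. Every *Slc13a4*+/- mouse lay above every wild-type mouse, as for 7.26% of all genes. No other subunit gene separated the groups in either direction, where 7.70% of all genes had every *Slc13a4*+/- mouse below and 15.0% had no overlap in either direction. Its log2 fold change of 0.10 (SE 0.04, 95% interval 0.01 to 0.19) had an edgeR adjusted p of 0.530. Without its retained-intron transcripts it was 0.09 (edgeR adjusted p = 0.626). In whole forebrain, a level per cell and the share of cells that express a gene cannot be told apart, which holds for every gene here.

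*Grin2a* (ENSMUSG00000059003, chromosome 16, 9567898 to 9995560) and *Grin2b* (ENSMUSG00000030209, chromosome 6, 135713233 to 136173511) had the widest intervals of the 10 genes. *Grin2b* had 874, 946 and 915 CPM in *Slc13a4*+/- mice, against 812, 788 and 1147 CPM in wild-type mice, and its log2 fold change was -0.01 (SE 0.13) with a 95% interval of -0.29 to 0.28. *Grin2a* had 545, 589 and 564 CPM in *Slc13a4*+/- mice, against 485, 501 and 638 CPM in wild-type mice, and its log2 fold change was 0.06 (SE 0.09) with a 95% interval of -0.15 to 0.28. For both genes the *Slc13a4*+/- mice sat between 2 lower wild-type mice and wild-type mouse Nas2Del_WT_1026.

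That mouse had the highest value of all 6 for 8 of the 10 subunit genes, all but *Gria2* and *Gria4*, and for 21.8% of all genes. It also had the highest summed markers of excitatory neurons (1228 CPM), inhibitory neurons (927 CPM), thalamus, hippocampus, astrocytes (1292 CPM), microglia and endothelium. It was not highest for markers of striatal neurons, oligodendrocytes, their precursors, choroid plexus, cerebellar granule cells or immature neurons. The part of these measures in the results was not tested. Without mouse Nas2Del_WT_1026, edgeR called *Grin2a* (log2 fold change 0.20, SE 0.04) and *Grin2b* (0.19, SE 0.04), each at an adjusted p of 0.0916, beside 1.29% of all genes. DESeq2 without it called 4 of the 10, *Gria2* (0.11), *Gria3* (0.13), *Grin2a* (0.19) and *Grin2b* (0.21), beside 6.54% of all genes. With mouse Nas2Del_WT_1026 as the only wild-type mouse, among the last 4 animals by number, the log2 fold changes of *Grin2a* and *Grin2b* had the opposite sign, at -0.16 (edgeR adjusted p = 0.291) and -0.31 (edgeR adjusted p = 0.103). The covariate likewise sets the *Slc13a4*+/- mice against Nas2Del_WT_1026 alone, and with it *Grin2a* was at -0.17 (edgeR adjusted p = 0.173) and *Grin2b* at -0.33.

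**Figure D4:**
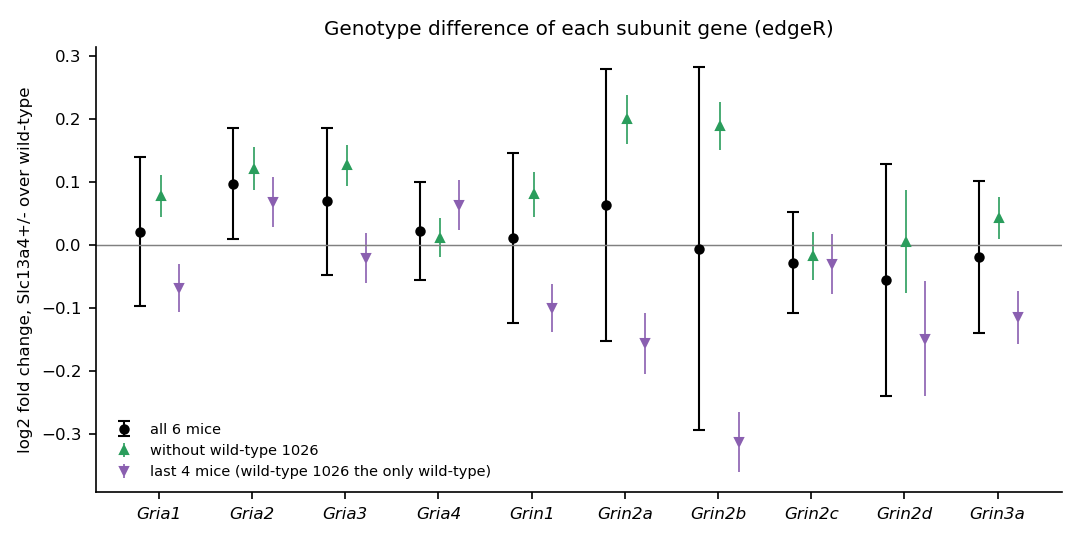
Log2 fold change of *Slc13a4*+/- over wild-type mice (y axis) for each subunit gene from edgeR, with all 6 mice (black, 95% interval), without wild-type mouse Nas2Del_WT_1026 (green, ± SE) and with mouse Nas2Del_WT_1026 as the only wild-type mouse (purple, ± SE). *Grin2b* is at -0.01, 0.19 and -0.31 in these fits, and *Gria2* is above 0 in all 3.

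The other members were narrower. *Gria1* had a log2 fold change of 0.02 (95% interval -0.10 to 0.14), *Gria3* 0.07 (-0.05 to 0.19), *Gria4* 0.02 (-0.06 to 0.10) and *Grin1* 0.01 (-0.12 to 0.15). *Grin2c* was at -0.03 (-0.11 to 0.05), *Grin2d* at -0.06 (-0.24 to 0.13) and *Grin3a* at -0.02 (-0.14 to 0.10). *Gria3* is X-linked, and its lowest value, 228 CPM, was in wild-type mouse Nas2Del_WT_1016, the mouse with the high *Kdm5d* value. The other mice had 248, 253 and 255 CPM in the *Slc13a4*+/- group and 234 and 259 CPM in the wild-type group. Nas2Del_WT_1016 was the lowest mouse for 4 of the 10 subunit genes, including the autosomal *Gria1*, *Gria2* and *Grin2a*, and for 19.9% of all genes. The part of sex in these values was not tested.

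Transcripts were then tested one by one, and 56 of the 62 passed the filter. EdgeR called none of them, beside 0.00544% of all transcripts, and 8 had an unadjusted p under 0.05 (5 higher and 3 lower in *Slc13a4*+/- mice, beside 7.38% of all transcripts). DESeq2 called 1 of them, beside 0.705% of all transcripts. Every *Slc13a4*+/- mouse lay above every wild-type mouse for 6 transcripts and below for 3, which is 16.1% of the 56 and also 16.1% of all transcripts (8.86% above and 7.25% below).

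The transcript called by DESeq2 was *Grin2b-206*, a model of 601 bases and 2 exons at the 5′ end of the gene (chromosome 6, GRCm38, exons 136171416 to 136171889 and 136044193 to 136044319, minus strand) with 109 coding bases. It had 3.89, 3.44 and 3.83 CPM in *Slc13a4*+/- mice, against 1.96, 1.72 and 2.22 CPM in wild-type mice, from estimated counts of 246 to 303 in *Slc13a4*+/- mice and 104 to 172 in wild-type mice. All *Slc13a4*+/- values lay above all wild-type values. Its log2 fold change of 0.92 (SE 0.15) had a DESeq2 adjusted p of 0.00406 and an edgeR adjusted p of 0.496. It lay between 0.83 and 1.01 in edgeR when each mouse was left out in turn, and DESeq2 called it in all 6 such fits.

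*Grin2b-206* held 0.415% ± 0.036 of *Grin2b* counts in *Slc13a4*+/- mice and 0.216% ± 0.024 in wild-type mice, but 13.6% ± 1.4 and 7.37% ± 0.56 of *Grin2b* TPM in these groups (SD, n = 3 each). Of its 601 bases, 594 are also in *Grin2b-201* and 7 are in no other *Grin2b* transcript. Its estimate thus depends on how Salmon divided reads that fit several transcripts, and the effect of that division was not tested. *Slc13a4* lies on the same chromosome, from 35267957 to 35308131, where *Grin2b* spans 135713233 to 136173511. The part of this location in the *Grin2b-206* values was not tested.

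Retained-intron models made up 3 of the 5 transcripts that were higher at p under 0.05. *Gria2-204* had 21.8, 30.7 and 25.3 CPM in *Slc13a4*+/- mice, against 15.1, 20.4 and 17.6 CPM in wild-type mice (log2 fold change 0.55, SE 0.16, edgeR adjusted p = 0.667). *Gria2-206* had 21.5, 29.7 and 26.8 CPM in *Slc13a4*+/- mice, against 16.0, 20.7 and 19.8 CPM in wild-type mice (log2 fold change 0.47, SE 0.15, edgeR adjusted p = 0.667). *Gria3-207* had 0.977 to 1.26 CPM in *Slc13a4*+/- mice and 0.441 to 0.810 CPM in wild-type mice. The other one besides *Grin2b-206* was *Grin1-214*, a noncoding model with 2.64 to 3.53 CPM in *Slc13a4*+/- mice and 1.44 to 2.35 CPM in wild-type mice. The 3 retained-intron transcripts had no overlap, of 10 retained-intron transcripts of the members tested, where 20.4% of all retained-intron transcripts had every *Slc13a4*+/- mouse above every wild-type mouse and 9.85% were higher at p under 0.05. Such transcripts took 2.03% to 2.45% of the counts of *Slc13a4*+/- mice and 1.81% to 2.02% of those of wild-type mice. The libraries were made from total RNA after removal of ribosomal RNA, so unspliced RNA is among the reads. The part of that overall share in the *Gria2* and *Gria3* values was not tested.

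The coding transcripts on the lower side were *Grin1-207*, *Grin2c-201* and *Grin3a-202*. *Grin1-207*, which is GluN1-4b, had 50.9, 52.5 and 58.2 CPM in *Slc13a4*+/- mice, against 61.7, 61.9 and 61.2 CPM in wild-type mice (log2 fold change -0.19, SE 0.06, edgeR adjusted p = 0.667). Of the other N1 forms, *Grin1-204* had 9.11, 6.82 and 0 CPM in *Slc13a4*+/- mice, against 0, 0 and 7.82 CPM in wild-type mice. *Grin1-208* had 4.21, 1.78 and 0 CPM against 0, 0 and 3.05 CPM in these groups. The share of all N1 forms overlapped between genotypes. How the division of reads among N1 forms entered the *Grin1-207* values was not tested. *Grin3a-202*, whose coding sequence is 60 bases longer than that of *Grin3a-201*, had 14.2, 10.9 and 13.1 CPM in *Slc13a4*+/- mice, against 15.7, 16.6 and 20.2 CPM in wild-type mice (log2 fold change -0.46, SE 0.14, edgeR adjusted p = 0.667). Its share of these *Grin3a* transcripts, chosen after the values were seen, was 19.5%, 14.8% and 18.0% in *Slc13a4*+/- mice, against 21.5%, 23.6% and 24.1% in wild-type mice. *Grin2c-201* had 22.5 to 23.9 CPM in *Slc13a4*+/- mice and 24.3 to 26.1 CPM in wild-type mice. The groups did not overlap for *Grin1-207*, *Grin2c-201* or *Grin3a-202*, and none of them was called by either tool with all 6 mice. With 1 mouse left out DESeq2 called 1 to 4 member transcripts. Beside *Grin2b-206* these were *Gria2-204*, *Gria2-206* and *Grin3a-202* without mouse Nas2Del_Het_1024, *Grin1-207* without mouse Nas2Del_Het_1027, *Gria2-204* and *Grin1-214* without mouse Nas2Del_WT_1018, and *Grin2a-206* and *Grin2b-201* without mouse Nas2Del_WT_1026. More of all transcripts were called in these fits as well, 1.85% without Nas2Del_Het_1024, 1.07% without Nas2Del_Het_1025, 1.16% without Nas2Del_Het_1027, 1.17% without Nas2Del_WT_1016, 1.72% without Nas2Del_WT_1018 and 1.76% without Nas2Del_WT_1026.

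**Figure D5:**
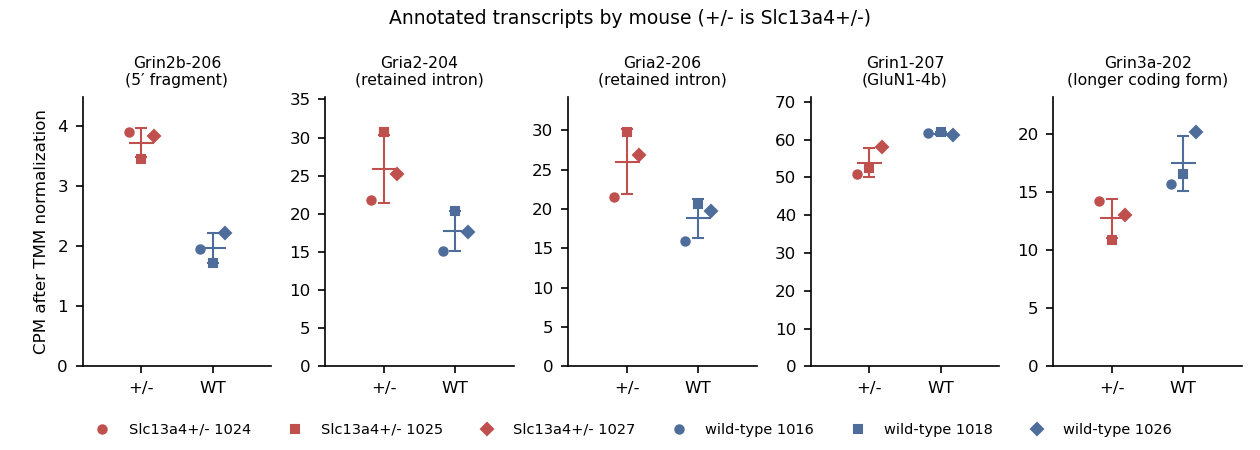
CPM after TMM scaling (y axis, from 0) of *Grin2b-206*, *Gria2-204*, *Gria2-206*, *Grin1-207* and *Grin3a-202* in each mouse, *Slc13a4*+/- (red) left of wild-type (blue), with the mean ± SD of 3 mice. *Grin2b-206* is at 3.44 to 3.89 CPM in *Slc13a4*+/- mice and 1.72 to 2.22 CPM in wild-type mice, and *Grin1-207* at 50.9 to 58.2 and 61.2 to 61.9 CPM in these groups.

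Genes that work with these receptors were read from lists of related function, and none of them was called by edgeR or DESeq2. Of 22 AMPA receptor auxiliary and assembly genes, 2 had an unadjusted edgeR p under 0.05, both lower in *Slc13a4*+/- mice, and the median log2 fold change was -0.03. The share of all genes with such a p was 9.15%, and the counts in this and the following lists are to be read beside it. These were *Abhd6* (-0.12, SE 0.04), a lipase that limits delivery of AMPA receptors to the surface, and *Nptx2* (-0.16, SE 0.06), a secreted pentraxin that clusters them. *Cacng2*, the auxiliary subunit stargazin, had 58.1, 58.3 and 56.2 CPM in *Slc13a4*+/- mice, against 60.0, 59.8 and 64.9 CPM in wild-type mice, without overlap (-0.10, SE 0.04). Of 12 NMDA receptor partner and co-agonist genes, 1 had such a p, the glycine transporter gene *Slc6a9* (-0.10, SE 0.04). *Rasgrf2*, an exchange factor coupled to NMDA receptors, was at 0.07 (SE 0.04) and *Slc1a1*, the neuronal glutamate transporter, at -0.05 (SE 0.04).

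Of 17 scaffold and trafficking genes, 2 were higher and 1 lower at an unadjusted edgeR p under 0.05. *Pick1* (0.10, SE 0.04) and *Grip1* (0.11, SE 0.05) encode PDZ proteins that bind the tail of the *Gria2* subunit, and *Homer1* (-0.15, SE 0.06) links metabotropic receptors to the scaffold. None of the 14 regulators of receptor splicing and editing had such a p. *Khdrbs2*, an RNA-binding protein of neuronal splicing, had 10.8, 11.3 and 11.3 CPM in *Slc13a4*+/- mice, against 10.3, 10.5 and 10.2 CPM in wild-type mice, without overlap (0.11, SE 0.05). *Srrm4*, which promotes inclusion of neuronal microexons, was at -0.17 (SE 0.10) and *Rest*, a repressor of neuronal genes, at -0.12 (SE 0.07). None of the 8 other ionotropic receptor genes had such a p, with the kainate receptor genes *Grik2* at 0.07 (SE 0.04) and *Grik3* at -0.11 (SE 0.06). The smallest edgeR adjusted p among the named partner genes was 0.500, for *Abhd6*.

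Markers of other cell types moved beside these values. Of the 5 oligodendrocyte markers, 5 had a log2 fold change below 0 (median -0.14), with a summed level of 7376 to 8605 CPM in *Slc13a4*+/- mice and 8375 to 9358 CPM in wild-type mice. The 5 microglial markers also lay below 0 (median -0.12; 222 to 229 CPM in *Slc13a4*+/- mice and 235 to 240 CPM in wild-type mice), and so did the 5 choroid plexus markers (median -0.18; 384 to 448 CPM in *Slc13a4*+/- mice and 465 to 471 CPM in wild-type mice). Of the 5 choroid plexus markers *Ttr* was called by DESeq2 (log2 fold change -0.22 in edgeR, DESeq2 adjusted p = 0.0921). *Ttr* made up most of the choroid plexus sum, with means of 373 CPM in *Slc13a4*+/- mice and 433 CPM in wild-type mice. It was the only marker of this list without overlap. The groups overlapped for *Kl* (-0.04), *Folr1* (-0.26), *Clic6* (-0.02) and *Otx2* (-0.18). The 5 astrocyte markers had a median of -0.05, with 4 below 0 and 2 of these at an unadjusted edgeR p under 0.05. The other, *Aldh1l1*, was at 0.07, and its lowest *Slc13a4*+/- value (69.09 CPM) lay just above its highest wild-type value (69.06 CPM). The summed astrocyte level was 1201 to 1250 CPM in *Slc13a4*+/- mice and 1279 to 1292 CPM in wild-type mice. The 4 endothelial markers had a median of -0.14, with no overlap for 3 of them, all lower, as for 7.70% of all genes. The other, *Slco1a4*, was at 0.07. The endothelial sum was 144 to 155.06 CPM in *Slc13a4*+/- mice and 154.95 to 170.04 CPM in wild-type mice, so the sums overlapped. Of 6 markers of neonatal and immature neurons, 5 lay below 0 (median -0.07), and *Nes*, also made by progenitors and vessels, was called by DESeq2 (-0.35 in edgeR, DESeq2 adjusted p = 0.0242). The medians of the 5 excitatory and 6 inhibitory neuron markers were -0.0046 and -0.03. The part of these shifts in the subunit values was not tested.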

How the data were processed

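The forebrain RNA of 3 *Slc13a4*+/- and 3 wild-type mice was made by the authors into stranded, rRNA-depleted libraries and quantified with Salmon 1.2.0. The authors deposited expected counts, TPM and effective lengths per transcript. The index that Salmon used was not given in the sources used here. Of 117135 transcripts listed, 115973 matched GENCODE M21 (GRCm38) by identifier, and the 1162 others, holding up to 0.645% of a library, were left out.

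Counts were summed per gene and rounded, and tested with edgeR 4.0.16 in R 4.3.3 (filterByExpr, TMM, quasi-likelihood test). DESeq2 1.42.0 with average transcript lengths as offsets was run beside it. Adjusted p-values are Benjamini-Hochberg over all genes or all transcripts, with 0.1 as the threshold. Estimated counts of a transcript that shares most bases with another are uncertain. Balances and splice shares came from TPM by mouse and were compared by exact permutation tests. The edgeR and DESeq2 fits were tested on simulated gene counts, without length offsets.

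The named genes were the members, *Slc13a4* and up to 3 genes of each partner list with the smallest p, plus the 3 genes nearest in pattern to *Grin2a* and *Grin2b*. Some values that this rule takes are not reported here. The members and lists were chosen with earlier results of these data known.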

Additional observations from a re-analysis of the deposited data

How the results depend on the processing

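No paired analysis was possible because the labels and methods do not state which mice shared a litter, so litter was not modelled. With each mouse left out in turn, the count of subunit genes called by edgeR was 0 to 2, and of transcripts called 0 to 0. Balances without overlap numbered 2 to 7 and splice shares without overlap 0 to 2, and ranges of fewer mice separate more often by chance. The log2 fold changes in these fits ran from -0.017 to 0.078 for *Gria1*, -0.045 to 0.080 for *Grin1*, -0.0029 to 0.20 for *Grin2a*, -0.10 to 0.19 for *Grin2b*, -0.12 to 0.0050 for *Grin2d*, -0.057 to 0.042 for *Grin3a* and -0.76 to -0.58 for *Slc13a4* (edgeR adjusted p = 0.0589 without wild-type mouse Nas2Del_WT_1026). The flip shares differed by -1.03 to 0.97 percentage points for *Gria1*, -0.53 to 0.078 for *Gria2*, -1.41 to 1.003 for *Gria3* and -1.45 to 1.65 for *Gria4*, and the C1 share by -2.24 to 0.48. The *Gria3* share ran from -0.12 to 0.43, the *Grin2a* share from -0.20 to 0.46, the log2 ratio of summed *Gria* to summed *Grin* from -0.038 to 0.097 and that of *Grin2a* to *Grin2b* from -0.034 to 0.0081.

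*Slc13a4* was called by DESeq2 with length offsets (-0.63) and without (-0.67), and by edgeR with no filter (-0.67). *Grin2b* was above 0 in DESeq2 with offsets (0.054), limma-voom (0.016), edgeR with offsets (0.055), without retained-intron transcripts (0.0036) and in protein-coding transcripts (0.0088). With the run of animal numbers as a covariate 1 subunit gene was called, *Grin2b* (-0.33, edgeR adjusted p = 0.0523), beside 0.836% of all genes. In that fit *Gria1* (-0.086), *Gria3* (-0.038), *Grin1* (-0.12) and *Grin2a* (-0.17) were below 0. Among the last 4 animals these genes, in the same order, were below 0 too (-0.069, -0.020, -0.10 and -0.16). DESeq2 called 1 transcript. The balance difference of *Grin2a* to *Grin2b* was 0.0018 in protein-coding transcripts, 0.060 per kilobase and 0.074 in full-length transcripts. The *Gria3* share difference was -0.075 in protein-coding and -0.12 in full-length transcripts, and the *Grin2b* share difference -0.62 per kilobase and -0.87 in full-length transcripts. Balances without overlap numbered 0 in protein-coding transcripts, 1 per kilobase and 1 in full-length transcripts. The full-length count and the DESeq2 fits without each mouse were chosen after seeing the data. The fits that left out mouse Nas2Del_WT_1026 or set it alone showed that the signs of *Grin2a* and *Grin2b* depended on the wild-type mice kept. The cause of these moves was not tested. With 3 mice a group, differences of the size seen between wild-type mice cannot be separated from none.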

Other observations

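Genes were ranked by how closely their pattern over the 6 mice followed that of a subunit gene, as the root mean square distance between log2 CPM values centred and scaled by gene, among 11837 genes. The nearest to *Grin2b* were *Gnaq* (0.050), which encodes a G protein alpha subunit, and *Gigyf2* (0.051), where the median of all genes was 1.27. The nearest to *Grin2a* were *2610507B11Rik* (0.075), *Kmt2e* (0.077) and *Usf3* (0.080), where the median of all genes was 1.28. Their levels averaged 188 CPM in both *Slc13a4*+/- and wild-type mice for *Gnaq*, and 65.2 CPM in *Slc13a4*+/- mice and 62.8 CPM in wild-type mice for *Kmt2e*. The ranking is a description over 6 mice, and wild-type mouse Nas2Del_WT_1026 was the highest mouse for *Grin2a* and *Grin2b*.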
